A study of Mus musculus with 5 samples.

Results

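Single Neuro2A cells were compared with single mouse embryonic fibroblasts (MEF), 1 plate of 96 wells each. Neuro2A is a mouse neuroblastoma line, a tumour of the sympathetic lineage of the neural crest. MEF are primary connective tissue cells of the embryo, for which the labels give no strain, passage or number of embryos. Both were grown in DMEM with serum, antibiotics and 2-mercaptoethanol, with no other treatment named, dissociated with an enzyme and sorted 1 cell to a well. A well was kept as a cell when at least 1000 reads fell on gene rows, which left 86 Neuro2A and 92 MEF cells, 178 of the 431 kept over the 5 plates of the series. The other 3 plates held ES R1 embryonic stem cells, and the stated design counts 436 single cells of 3 types. With 1 plate per cell type there is no replicate, so no test was made and no p-value is given. Cells of 1 plate are not replicates of a cell type.

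As background, fibroblasts build the extracellular matrix: they secrete collagens and glycoproteins, cross-link them, remodel them with proteases and pull on them through integrins and actin stress fibres. Sympathetic neuroblasts instead package peptides into dense-core vesicles with granins, stabilise neurites with neuronal microtubule proteins, and are specified by the transcription factors such as Phox2a, Hand2 and Gata2 or Gata3. Neuroblastoma cells divide with little restraint, whereas cultured primary fibroblasts often carry active p53 and cyclin-dependent kinase inhibitors.

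The kept wells held 3155092 gene reads in Neuro2A and 2930884 in MEF. The median well had 26278 gene reads in Neuro2A (1042 to 203348) and 12749 in MEF (1019 to 157869). Reads carry no molecular identifiers, so intervals and floors cover counting error only. Levels are sums over a plate's kept wells in CPM, a read's share of the plate's reads scaled to a common total, adjusted between plates by the trimmed mean of M values (TMM). Plate sums under 3 reads were set to 3 reads, which is 0.966 CPM in Neuro2A and 1.52 CPM in MEF. A gene was called higher in 1 plate at a ratio of 4-fold or more with a mean of at least 10 CPM. Read counts are given as Neuro2A against MEF throughout. A MEF ratio on 0 Neuro2A reads is taken at the floor and written as at least that fold, and a ratio on 1 to 3 Neuro2A reads is taken on the reads as counted, without the floor, with its counting interval. Calls and rankings use the floor, so folds printed without it are not to be ranked against the others. Shares of cells were taken after every well was thinned to 1000 gene reads. At that depth a Neuro2A cell had reads on a median of 451 genes (137 to 734) and a MEF cell on 524 (160 to 724).

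All 96 barcodes were used on both plates, 84 were kept on both, and MEF wells held reads of genes typical of Neuro2A. For 152 genes at 100 CPM or more in Neuro2A and at least 10 times every ES plate, MEF held a median of 9.90% of the Neuro2A reads (quartiles 6.05% and 23.7%). In the other direction the median over 234 MEF genes was 0.318%. The barcode check took the 106 of the 152 genes whose MEF share was no more than 2 times the 9.90%, so they were picked on their MEF reads. Over the 96 barcodes, MEF reads of these 106 Neuro2A genes went with the Neuro2A reads at the same barcode (Pearson r 0.713, Spearman rho 0.719). They went as closely with the depth of the MEF well (r 0.718), and both values share the barcode. The Neuro2A reads of these genes went less closely with that depth (r 0.355). For 125 of the 234 MEF genes, kept by the same rule, the Neuro2A reads went with the MEF reads at the same barcode at r 0.113. In the 8 MEF wells whose Neuro2A well was not kept the 106 Neuro2A genes took 0.181% of reads, against 0.343% in the 84 others. Of the 354 reads in the 8 wells, 173 lay in 1 well, and the median per well was 0.0695% against 0.375%. A gene with the median share of 9.90% of its Neuro2A reads in MEF would have a ratio of 6.44-fold. Of the genes called higher in Neuro2A, 1146 (78.7%) had MEF reads within 2 times that share. A 4-fold call already keeps a gene under the upper end of that range. The count is thus of the calls with smaller ratios, and it was not set against uncalled genes. A Neuro2A excess is a lower limit so far as a gene's MEF reads are shared ones, which was not settled gene by gene: as shares of gene reads, Npm1, Tmod2 and Dkc1 were higher in those 8 wells than in the others. Folds in the 2 directions are not set against each other. In bulk sums fewer cells with a transcript and less RNA per cell cannot be told apart, which is why shares of cells stand beside the sums.

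**Figure D1:**
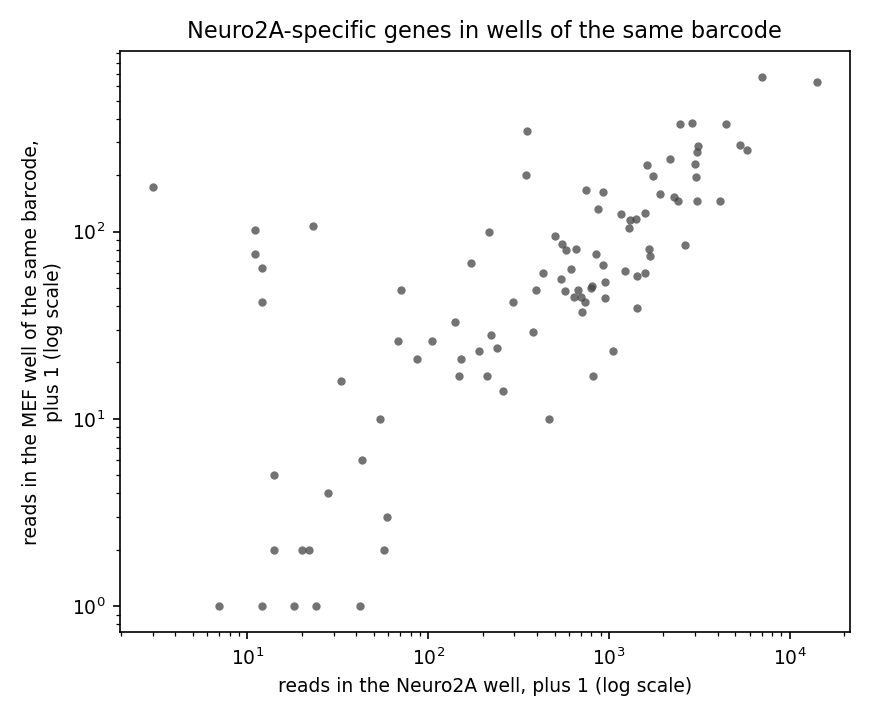
Reads of 106 Neuro2A genes in each of 96 barcodes, in the Neuro2A well (x axis) and in the MEF well of the same barcode (y axis), both plus 1 and on log scales, 1 point per barcode. The genes were at least 10 times every ES plate and were kept if their MEF share was no more than 2 times the median. The points rise together (Pearson r 0.713 and Spearman rho 0.719 over the 96 barcodes).

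Of 8492 tested genes, 1457 were at least 4-fold higher in Neuro2A (17.2%) and 2687 at least 4-fold higher in MEF (31.6%), as the plot of plate sums shows. The median tested gene was itself lower in Neuro2A, at a log2 ratio (Neuro2A over MEF) of -0.42, and list medians below are to be read against it, as list counts are against the 17.2% and 31.6%. It depends on the scaling: it was 0.23 with library sizes alone, with 1966 and 2073 calls, and -0.23 with DESeq2 size factors, with 1613 and 2525. A ratio of 16-fold or more was seen for 197 genes in the Neuro2A direction and 1802 in the MEF direction. Among the calls, 22 of the Neuro2A genes had 0 reads in MEF, and 1033 of the MEF genes had 0 reads in Neuro2A. At equal depth the share of cells with a read lay on the same side for 1327 of the 1457 and 2307 of the 2687. In many calls 1 deep well supplied 50% or more of the higher plate's reads: 49.5% of the Neuro2A calls and 44.5% of the MEF calls. With each gene's own deepest well left out on both plates, 986 and 2066 genes were called.

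**Figure D2:**
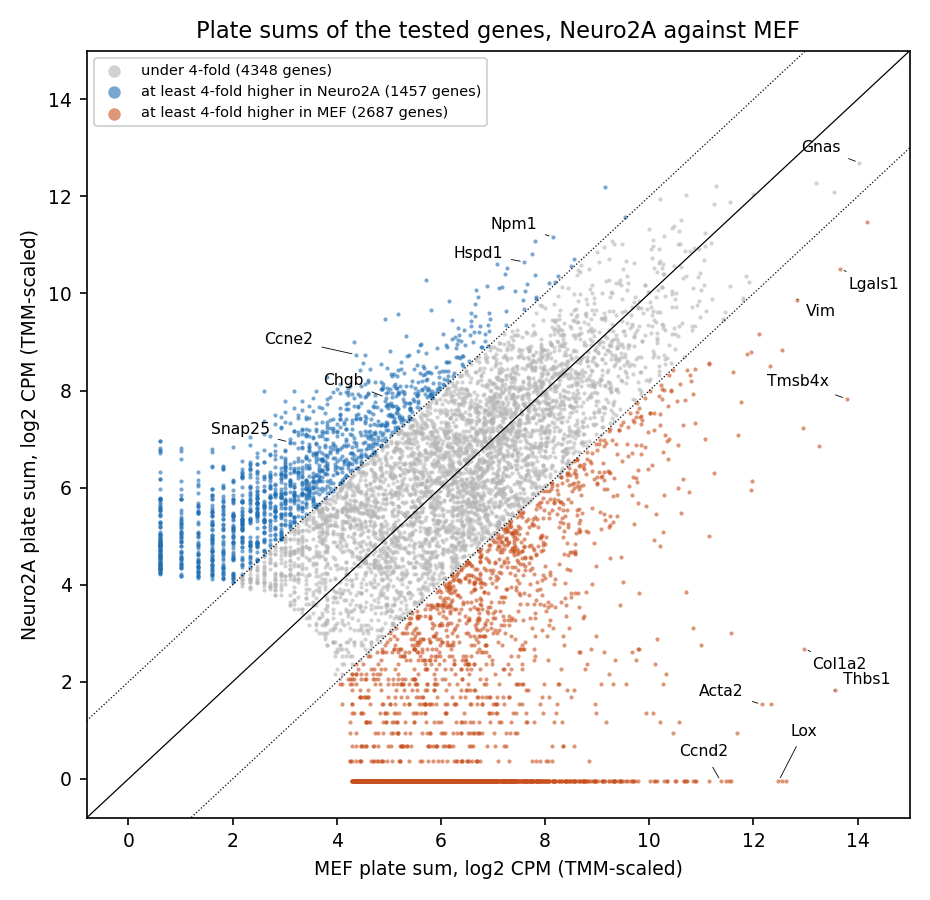
TMM-scaled plate sums of the 8492 tested genes in log2 CPM, MEF on the x axis and Neuro2A on the y axis, 1 point per gene; the solid line is equality and the dotted lines are 4-fold. The row of points at the bottom holds genes at or under the floor of 3 reads in Neuro2A, among them Lox, and the column at the left genes at or under the floor in MEF.

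The labels were checked against defining markers. Of 13 fibroblast markers all were tested, 12 were higher in MEF and 1, Pdgfra, higher in Neuro2A; their summed level was 580.0 CPM in Neuro2A and 27944 in MEF, and 5 were at 0 reads in Neuro2A. Of 16 neuroblastoma markers 13 had a row and 12 were tested, 10 higher in Neuro2A and 1, Gata3, higher in MEF, at 2380.0 against 344 CPM. Cell by cell, fibroblast reads outnumbered neuroblastoma reads in 85 of 92 MEF and 8 of 86 Neuro2A cells, and the reverse held in 51 Neuro2A and 5 MEF cells. The 2 were equal in 27 Neuro2A cells, 24 of them at 0 reads of both, and in 2 MEF cells. Those 5 MEF cells had 1676 to 5934 gene reads, at barcodes whose Neuro2A wells held 11221 to 102462. Whether their neuroblastoma reads are shared ones was not tested. Tyrosine hydroxylase (Th) and dopamine beta-hydroxylase (Dbh), the defining enzymes of noradrenergic cells, had no row and were not analysed here. All 6 macrophage markers with a row were at 0 reads on both plates. Glial and erythroid lists had no tested member, and endothelial, epithelial and muscle lists summed to at most 105 CPM on either plate. Adipocyte and chondrocyte markers summed to 159 CPM in Neuro2A and 168 in MEF. Of 15 embryonic stem cell markers 13 had 0 reads in Neuro2A and 10 in MEF. Of the Y-linked genes Eif2s3y and Ddx3y had 0 Neuro2A reads and 363 and 124 MEF reads.

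The 15 Neuro2A genes named first, by ratio among the more widely read calls, held growth and protein-folding genes and a few neuronal ones. Npm1, a nucleolar chaperone of ribosome assembly, had 7105 reads in Neuro2A and 563 in MEF (8.04-fold), and was read in 60.5% of Neuro2A cells (95% exact binomial interval 49.3 to 70.8%) against 15.2% of MEF cells (8.58 to 24.2%). Hspd1, the mitochondrial chaperonin, had 4990 reads in Neuro2A and 385 in MEF and was read in 51.2% of Neuro2A and 14.1% of MEF cells. Both genes were named partly for a read in at least 25% of Neuro2A cells. The intervals cover the counting of cells within 1 plate only. Amd1, which makes decarboxylated S-adenosylmethionine for polyamine synthesis, had 2379 against 72 reads, Bag3, a co-chaperone of Hsp70, 3006 against 207 reads, and Cacybp, a calcyclin-binding protein, 3532 against 234 reads. Tmod2, the neuronal tropomodulin that caps actin filaments, had 6684 against 446 reads. The 8 MEF wells without a kept Neuro2A well held 180 of the MEF reads of Npm1 and 172 of those of Tmod2. Against these wells alone the log2 ratios were 1.68 and 1.65, under 4-fold and close to the median gene there (1.62). Mtap1b, the microtubule-associated protein 1B of growing axons, had 2739 against 199 reads, and the protocadherin alpha cluster, adhesion proteins of neurons listed under the symbol Pcdha@, 14523 against 1130 reads. For Clcn3, an endosomal chloride-proton exchanger, the values were 5630 against 425 reads. The remaining names in the top 15 were Rpl34, 2410006H16Rik and the predicted loci LOC664903, LOC100043295, 4930550L24Rik and 1700029F09Rik. Npm1 and Rpl34 have many near-identical copies in the mouse genome, so their read assignment is uncertain.

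Per cell these differences were of a few reads. At 1000 reads a Neuro2A cell held 0 to 46 Npm1 reads, median 1, and a MEF cell 0 to 10, median 0. Hspd1 ranged from 0 to 18 in Neuro2A, median 1, and from 0 to 8 in MEF, median 0. The ranges of the 2 plates overlapped for every Neuro2A gene named here.

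Genes of peptide secretion were mostly higher in Neuro2A. Of 20 genes of the dense-core vesicle and granin list, 17 had a row, 13 were tested, 9 were called higher in Neuro2A and 3 higher in MEF, with a median of 2.54 (all tested genes -0.42). Granins are acidic proteins that drive granule formation. Chgb had 720 reads in Neuro2A and 61 in MEF (7.52-fold), and was read in 17.4% against 2.17% of cells. Vgf, a neuropeptide precursor, had 1196 against 136 reads, Scg5, the chaperone of prohormone convertase 2, 637 against 42 reads, Scg3 182 against 20 reads and Chga 175 against 15 reads. At equal depth Scg5 was read in 6.98% against 4.35% of cells, and with wells thinned before summing its log2 ratio was 0.50, under 4-fold. Scg2 had 134 against 9 reads, but 1 Neuro2A well supplied 88.8% of them. The synaptotagmins Syt11 (721 against 46 reads) and Syt4 (250 against 5 reads) were also called. The 3 MEF calls were Cpe, Pam and Nucb2. Cpe, the carboxypeptidase that trims prohormones, had 802 against 2698 reads (5.28-fold higher in MEF, under 4-fold with library size scaling), Pam, which amidates peptides, 23 against 108 reads, and Nucb2, the nesfatin precursor, 6 against 127 reads. Ptprn, a granule membrane protein, was the member not called (159 against 221 reads).

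The start regions of 2 of these granin genes share a cyclic AMP response element, TGACGTCA, searched on both strands in the RefSeq promoter windows of GRCm38.p6 (250 bases before to 50 after each start). They are shown because these 2 members carry it and both were higher in Neuro2A; the element is in capitals, 72 bases before the Chgb start and 68 before that of Scg2. Chgb lies on the plus strand at chr2:132781550-132781597 and Scg2 on the minus strand at chr1:79440067-79440114, both upstream of the first exon.
Chgb: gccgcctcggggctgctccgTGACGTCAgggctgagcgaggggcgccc
Scg2: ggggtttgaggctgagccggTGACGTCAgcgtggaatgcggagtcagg
Of the 13 tested members 10 had a promoter row, and the other 8 of these did not hold these letters. The element was in 1.79% of all windows, 3.23% of those of tested genes, 3.12% of those called higher in Neuro2A and 2.57% of those called higher in MEF. A match is a description of the letters and not a binding site.

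Membrane fusion genes of the synapse were sparse. In that list of 20, 9 of 18 with a row were tested, 6 were called higher in Neuro2A and 1 higher in MEF (median 2.20). Snap25, the neuronal SNARE protein of the plasma membrane, had 380 against 17 reads, Rab3c, a vesicle GTPase, 257 against 26 reads, Vamp2, the vesicle SNARE, 153 against 7 reads, and Cplx1, complexin, 216 against 34 reads. With each gene's deepest well left out, 4 and 0 were at 4-fold of 6 tested.

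Neurite cytoskeleton genes were split between called and uncalled members. Of 35 listed, 32 had a row and 23 were tested, of which 8 were called higher in Neuro2A, 2 higher in MEF and 13 neither (median 1.54). Stmn2, a tubulin-binding protein of growth cones, had 1044 reads in Neuro2A and 108 in MEF and was read in 22.1% against 4.35% of cells. Its relative Stmn3 had 291 against 19 reads, Kif5c, a neuronal kinesin heavy chain, 774 against 73 reads, Prph1, peripherin, the intermediate filament of peripheral neurons, 286 against 41 reads, Mapt, tau, 160 against 12 reads and the adhesion protein L1cam 126 against 14 reads. Other neuronal markers were under 4-fold: Gap43 had 793 against 135 reads (3.74-fold), Tubb3 441 against 88 reads (3.19-fold), Uchl1 425 against 80 reads (3.39-fold) and Stmn1 1085 against 248 reads (2.79-fold). Ncam1 and Marcksl1 had more reads in MEF (360 against 514 reads and 998 against 1082 reads). In the 8 MEF wells without a kept Neuro2A well they had 5 and 3 reads. Against these wells their log2 ratios were 2.54 and 4.75, with the median gene at 1.62. Tubb2b, another neuronal beta-tubulin, was 10.3-fold higher in MEF (36 against 236 reads), though 57.6% of its MEF reads came from 1 well. Tubulin genes are close copies, so reads may be split among them. Nefm, a neurofilament chain, was called higher in MEF too, at 0 against 62 reads (at least 32.4-fold), 69.4% of them from 1 well. With Neuro2A reads subtracted from the MEF wells, 13 of the list were called higher in Neuro2A.

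RNA-binding proteins of neurons gave some of the higher ratios. Elavl2, a HuB-type regulator of AU-rich mRNAs, had 1521 reads in Neuro2A and 96 in MEF (10.1-fold), and Elavl4 (HuD) 854 against 38 reads (14.3-fold). Nova1, a neuronal splicing regulator, had 274 against 10 reads. A single Neuro2A well supplied 66.7% of the Elavl4 and 58.4% of the Nova1 reads, against 25.6% for Elavl2. In this list of 12, 6 were tested, 3 called higher in Neuro2A and 1, Khdrbs3, higher in MEF (median 1.37).

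Transcription factors of the sympathoadrenal lineage were called on both sides. Of 27 listed, 21 had a row and 16 were tested, with 9 called higher in Neuro2A and 4 higher in MEF (median 2.38). Phox2a, a homeobox factor of sympathetic neurons, had 851 against 85 reads, and Insm1, a zinc-finger factor of neuroendocrine differentiation, 510 against 28 reads. Hand2 had 73 against 4 reads, 67.1% of the Neuro2A reads from 1 well, and Meis1, a homeobox cofactor, 248 against 25 reads. In the 8 MEF wells without a kept Neuro2A well, 7 of the 9 Neuro2A calls of this list had 0 reads, Phox2a, Insm1 and Hand2 among them, while Meis1 had 3 and Gata2 4. These wells together held 196093 gene reads, 80.9% of them in 2 wells. Over all calls, 86.1% of the Neuro2A genes and 55.5% of the MEF genes had 0 reads there. The GATA factors fell on opposite sides. Gata2 was higher in Neuro2A (557 against 83 reads, 4.28-fold), and Gata3 higher in MEF (46 against 124 reads, 4.23-fold), with 67.7% of its MEF reads from 1 well. With library size or DESeq2 scaling Gata3 was under 4-fold. Rest, the repressor of neuronal genes, had 13 against 46 reads (5.55-fold higher in MEF). Mrg1 (Meis2) was called higher in MEF too, at 3 against 131 reads (68.5-fold, counting interval 22.9 to 337). Ebf1, also called in MEF, had 1 against 52 reads, 98.1% of the MEF reads from 1 well. Sox4 and Sox11 were not called (517 against 679 reads and 613 against 432 reads). Without each gene's deepest well, 6 factors were called higher in Neuro2A and 1 in MEF, of 11 tested.

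Mycn and 1 amine enzyme were called higher in Neuro2A, both on few wells. Mycn, the MYC family member often amplified in human neuroblastoma, had 140 against 12 reads, 67.1% of the Neuro2A reads from 1 well, and Myc had 2495 against 1191 reads and was not called. Ddc, the decarboxylase that makes dopamine, was called higher in Neuro2A (175 against 21 reads, 52.6% from 1 well). Gch1, which starts synthesis of the tyrosine hydroxylase cofactor, was not called (142 against 34 reads). Maoa, which degrades amines, had 0 reads in Neuro2A and 302 in MEF, at least 158-fold higher. Of 10 catecholamine genes 6 had a row and 4 were tested.

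Growth factors and receptors named for nerve cells were mostly on the fibroblast side. Of 9 tested among 21, 1 was higher in Neuro2A and 5 higher in MEF (median -3.82). Ngfr, the p75 neurotrophin receptor, was the Neuro2A call (57 against 6 reads, 6.05-fold). Mdk, midkine, a heparin-binding growth factor, had 0 reads in Neuro2A and 1433 in MEF (at least 749.6-fold), and its relative Ptn, pleiotrophin, 179 against 1612 reads. The Notch ligand-like Dlk1 had 9 against 471 reads. Ret, the GDNF receptor kinase, was not called (66 against 56 reads). With each gene's deepest well left out, 0 and 3 genes were called.

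Matrix genes separated the cells of the 2 plates. Together 96 genes of 4 matrix lists had a row, 86 were tested, 73 were called higher in MEF and 1 higher in Neuro2A. At 1000 reads per cell they took 5 to 126 reads in MEF cells, median 66, and 0 to 19 in Neuro2A cells, median 5. In 83 of 92 MEF cells the value was above that of every Neuro2A cell, and the other 9 MEF cells overlapped the Neuro2A range. The neuronal lists overlapped between the plates. The 100 genes of 5 neuronal lists took 0 to 25 reads in Neuro2A cells, median 8, and 0 to 16 in MEF cells, median 4. After Neuro2A reads were subtracted well by well, the MEF median was 76.5 for matrix and 3 for neuronal genes, over 86 cells left with 1000 reads. That subtraction lowers Neuro2A genes in MEF by construction.

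**Figure D3:**
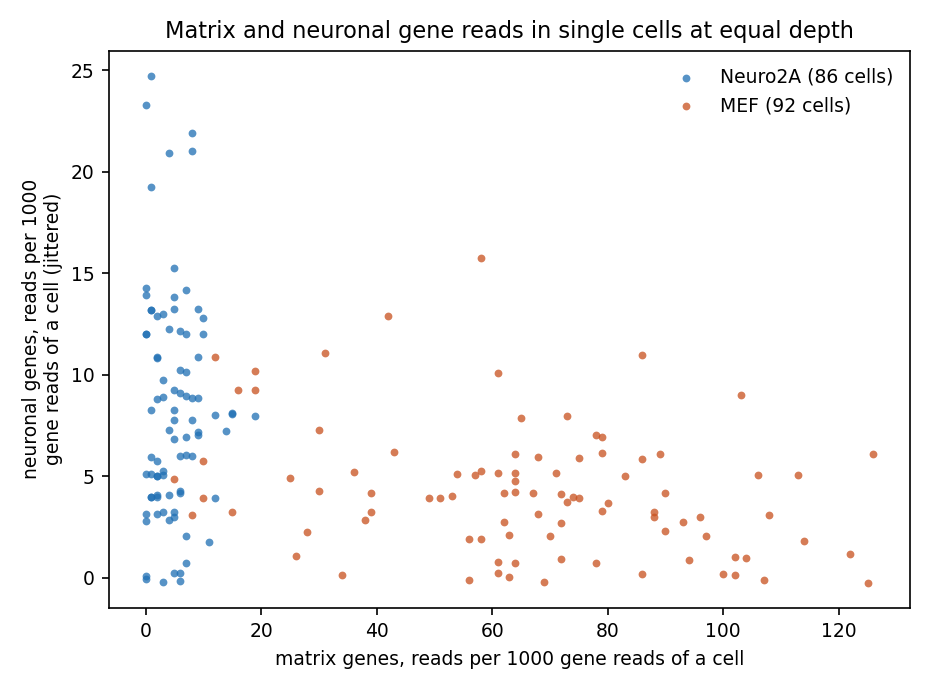
Reads of 96 matrix genes (x axis) and 100 neuronal genes (y axis, jittered by up to 0.3) per 1000 gene reads of a cell, 1 point per cell, 86 Neuro2A and 92 MEF cells. MEF cells spread from 5 to 126 matrix reads with a median of 66, Neuro2A cells stay between 0 and 19, and the neuronal values of the 2 plates overlap.

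Fibrillar collagens were almost all on the MEF side. Of the 20 listed genes 19 had a row and 18 were tested, of which 17 were called higher in MEF and none in Neuro2A, with a median of -7.70. Col1a2, a chain of type I collagen, had 20 reads in Neuro2A and 15917 in MEF (1249-fold higher in MEF). At equal depth it was read in 0 of 86 Neuro2A cells, which allows a share of up to 4.20%, and in 82.6% of MEF cells (73.3 to 89.7%). The partner chain Col1a1 had 9 against 10216 reads, and Col3a1, type III collagen, 27 against 3629 reads. Col12a1, Col8a1 and Col5a2 had 0 Neuro2A reads and 5857, 4501 and 3708 MEF reads, at least 3064-fold, 2354-fold and 1939.5-fold higher. Col18a1, a basement membrane collagen, was the uncalled member (159 against 126 reads).

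Glycoproteins and matricellular signals were called as often. Of the 30 listed genes 30 had a row and 28 were tested, with 26 called higher in MEF and none in Neuro2A (median -7.42). Thbs1, thrombospondin 1, had 11 reads in Neuro2A and 23859 in MEF (3404-fold) and was read in 89.1% of MEF cells. Tnc, tenascin C, had 0 and 11845 reads, at least 6196-fold higher, and Bgn, the proteoglycan biglycan, 0 and 6017, at least 3147-fold. Sparc, a collagen-binding glycoprotein, had 361 against 19268 reads (83.8-fold), and Spp1, osteopontin, 0 and 3299 reads, 37.1% of them from 1 well. Ctgf and Cyr61, secreted targets of the YAP coactivator, had 0 and 3211 reads (at least 1679.6-fold) and 3 and 2566 reads (1342-fold, counting interval 459 to 6513). Some matrix genes were read in Neuro2A too. Fn1, fibronectin, had 1428 reads in Neuro2A and 11776 in MEF (12.9-fold), and Lgals1, galectin 1, 4535 against 25772 reads (8.92-fold), read in 48.8% of Neuro2A and 91.3% of MEF cells. Fbln2, fibulin 2, was not called (2276 against 3994 reads, 2.75-fold). Postn and Dcn, common fibroblast markers, were called higher in MEF (0 against 457 and 1 against 998 reads) but were read in 6.52% of MEF cells each.

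Basement membrane genes were mixed. Of the 14 listed genes 14 had a row and 11 were tested, of which 7 were higher in MEF and 1 higher in Neuro2A (median -4.92). Nid1, nidogen, had 0 and 1392 reads (at least 728-fold), and Lamb1-1, the laminin beta 1 chain, 0 and 848 (at least 444-fold). Its partner chain Lamc1 was not called (637 against 702 reads). Col4a1 was called and its partner Col4a2 was not (456 against 2171 reads, 7.47-fold, and 725 against 932 reads, 2.02-fold). Agrn, agrin, the proteoglycan that nerve endings secrete at the neuromuscular junction, was the Neuro2A call (259 against 28 reads, 54.8% of the Neuro2A reads from 1 well).

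Enzymes that cross-link and remodel collagen were also mostly higher in MEF. Of the 35 listed genes 33 had a row and 29 were tested, with 23 called higher in MEF and none in Neuro2A (median -5.09). Lox, which oxidises collagen lysines for cross-linking, had 0 and 11300 reads (at least 5911-fold) and was read in 68.5% of MEF cells (58.0 to 77.8%), and Serpinh1, the collagen chaperone HSP47, 0 and 3638 (at least 1903-fold). Mmp2 and Mmp14, a gelatinase and its activating membrane protease, had 0 reads in Neuro2A and 877 and 694 in MEF. Prss23, a secreted serine protease outside the list, had 0 and 3756 reads (at least 1965-fold) and was among the 15 largest MEF ratios. The inhibitors Timp1 and Timp3 had 424 against 6560 reads and 398 against 4283 reads, and 1 Neuro2A well held 99.5% of that plate's Timp1 reads. P4hb and Plod1, general collagen hydroxylation genes, were not called (1886 against 2502 reads and 653 against 159 reads).

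The contractile apparatus differed by isoform. Of the 31 listed genes 31 had a row and 29 were tested, with 24 called higher in MEF and none in Neuro2A (median -4.04). Acta2, smooth muscle alpha-actin, the actin of myofibroblasts, had 9 reads in Neuro2A and 9067 in MEF (1581-fold), and was read in 0 of 86 Neuro2A and 68.5% of MEF cells. The cytoplasmic actins were not called: Actb had 3723 against 7689 reads (3.24-fold higher in MEF) and Actg1 2575 against 1743 reads (a ratio of 0.941, with the higher plate depending on the scaling). Cnn1, calponin, had 0 and 984 reads (at least 515-fold), Myl9, the smooth muscle regulatory light chain, 1 and 2038 (3198-fold, counting interval 573 to 126376), and Tagln, transgelin, 1 and 1288, with 63.7% from 1 well. Tpm1, tropomyosin 1, had 464 against 15594 reads (52.7-fold) and Tmsb4x, the actin-sequestering thymosin beta 4, 707 against 27999 reads (62.1-fold); they were read in 89.1% and 91.3% of MEF and 10.5% and 15.1% of Neuro2A cells. Actins and thymosins have close copies, which leaves their assignment uncertain.

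A CArG box, the motif bound by serum response factor, was searched on both strands in the same promoter windows, since many contractile genes carry one. It was in 1.57% of the windows of tested genes, 1.17% of those called higher in Neuro2A, 2.09% of those called higher in MEF and 4.96% of the 121 windows of MEF calls read in at least 25% of MEF cells (all windows 1.63%). TATAAA on the sense strand was in 4.23%, 3.41%, 4.99% and 9.92% of the same sets (all windows 8.32%). Of the 29 tested contractile genes 26 had a row and 5 held the box, Actg1, Cnn2, Fhl2, Myl6 and Myl9. The box of Myl9, the called gene of these with the largest ratio, is printed in capitals, 161 bases before its start on the plus strand of GRCm38.p6, chr2:156775283-156775332, upstream of the first exon.
Myl9: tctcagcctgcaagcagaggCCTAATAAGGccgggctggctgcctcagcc
Actg1 holds the box too and was not called.

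Adhesion genes were mostly higher in MEF. Of the 26 listed genes 25 had a row and 23 were tested, with 19 called higher in MEF and none in Neuro2A (median -3.36). Cd44, the hyaluronan receptor, had 6 against 6513 reads (1703-fold). Cav1 and Ptrf, caveolin 1 and cavin 1, the coat proteins of caveolae, had 7 against 2328 reads (522-fold) and 1 against 1632 reads (2561-fold, counting interval 459 to 101212). Itgb1, the common beta chain of matrix integrins, was read in both plates (1333 against 7457 reads, 8.78-fold). Flna, filamin A, had 199 against 2954 reads and Vcl, vinculin, 485 against 3183 reads. All 7 tested intermediate filament and lamina genes of 12 were higher in MEF (median -5.35). Vim, vimentin, had 2918 reads in Neuro2A and 14556 in MEF (7.83-fold) and was read in 38.4% and 85.9% of cells, and Lmna, lamin A and C, 3 against 2151 reads (1125-fold, counting interval 384 to 5460.1).

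**Figure D4:**
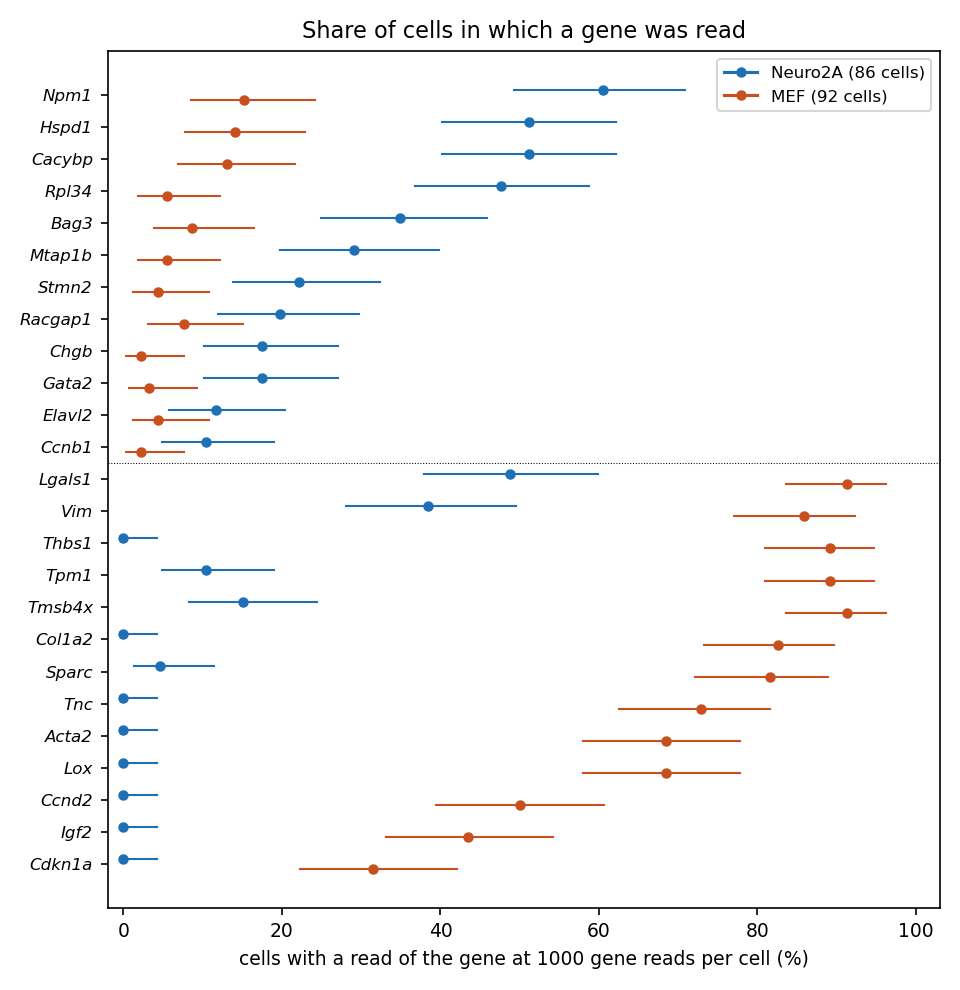
Share of cells with at least 1 read of a gene after thinning to 1000 gene reads, with 95% exact binomial intervals over cells of 1 plate, for 12 genes called higher in Neuro2A (above the dotted line) and 13 called higher in MEF. Npm1 was read in 60.5% against 15.2% of cells, whereas Thbs1, Col1a2, Tnc, Acta2 and Lox were read in 0% of Neuro2A cells and 68.5% to 89.1% of MEF cells.

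The MEF genes read in most cells reached several reads per 1000. Lgals1 ranged from 0 to 16 in Neuro2A cells, median 0, and 0 to 28 in MEF cells, median 7. Tmsb4x ranged from 0 to 4 in Neuro2A cells, median 0, and 0 to 194 in MEF cells, median 6, and Tpm1 from 0 to 5 in Neuro2A cells, median 0, and 0 to 26 in MEF cells, median 4.5. Each of these overlapped between the plates at the low end, since some MEF cells had no read. Sparc ranged from 0 to 5 in Neuro2A cells, median 0, and 0 to 27 in MEF cells, median 5, and Vim from 0 to 19 in Neuro2A cells, median 0, and 0 to 222 in MEF cells, median 3.5. Thbs1 and Col1a2 had no read in any Neuro2A cell at this depth, while MEF cells reached 24 and 22 reads, with medians of 4 and 2.

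Mesenchymal regulators were called in MEF or not at all. Of the 32 listed genes 28 had a row and 24 were tested, with 13 called higher in MEF, none in Neuro2A and 11 neither (median -4.54). Prrx1, a homeobox factor of limb and craniofacial mesenchyme, had 0 and 2238 reads (at least 1171-fold), Hmga2, an embryonic chromatin protein, 0 and 1274 (at least 666-fold) and Twist1, a factor of mesoderm and neural crest migration, 7 against 401 reads. Yap1, the Hippo pathway coactivator, had 1 and 975 reads (1530.0-fold, counting interval 274 to 60492), 65.6% of the MEF reads from 1 well. Zeb1, Zeb2 and Foxd1 were not called, with 94 against 21 reads, 779 against 291 reads and 560 against 105 reads. Among surface receptors 17 of 22 were tested, 12 called higher in MEF and 1 higher in Neuro2A (median -6.11). Pdgfrb had 0 and 132 reads (at least 69.0-fold), Thy1 0 and 428 (at least 224-fold) and Cdh11, a mesenchymal cadherin, 17 against 1694 reads. Pdgfra, a platelet-derived growth factor receptor listed as a fibroblast marker, was the Neuro2A call (301 against 26 reads), with 97.0% of the Neuro2A reads in 1 well and no Neuro2A cell with a read at equal depth. With each gene's deepest well left out, 9 receptors were called higher in MEF and 0 in Neuro2A.

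Genes of fetal growth were mostly higher in MEF. In the insulin-like growth factor axis 14 of 17 genes were tested, 9 called higher in MEF and none in Neuro2A (median -4.10). Igf2, the fetal growth factor, had 25 against 6053 reads (379.9-fold), its clearance receptor Igf2r 12 against 1484 reads, the binding protein Igfbp3 19 against 1114 reads and Grb10, an adaptor that restrains insulin receptor signalling, 0 and 3361 (at least 1758-fold). The signalling receptor Igf1r was not called (563 against 539 reads). Several of these are imprinted, and in the imprinted list 9 of 14 tested genes were higher in MEF and 1, Snrpn, in Neuro2A (90.8% of its reads from 1 well). Peg3 had 2 and 802 reads (629-fold, counting interval 174 to 5205) and Cdkn1c 0 and 980 (at least 513-fold). Gnas, the stimulatory G protein alpha subunit, was read in most cells of both plates and not called (20571 against 33144 reads).

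Secreted signals were mostly higher in MEF, with 2 exceptions. Of 22 tested among 27, 17 were higher in MEF and 2 higher in Neuro2A (median -5.81). Cxcl12, the ligand of Cxcr4, had 0 and 2201 reads (at least 1151-fold), and the monocyte attractants Ccl7 and Ccl2 had 0 and 1268 (at least 663-fold) and 133 against 1322 reads. Inhba, the activin A subunit, had 7 against 3014 reads (676-fold), and Bdnf, a neurotrophin, 8 against 2124 reads (417-fold). The 2 Neuro2A calls were Cxcl1, a neutrophil attractant (443 against 27 reads, read in 15.1% against 1.09% of cells), and Il6 (128 against 8 reads, 55.5% from 1 well). In the calcium-binding list 10 of 16 tested genes were higher in MEF (median -4.25), among them S100a6 (244 against 4816 reads, 31.0-fold) and Anxa1, annexin A1 (1 against 2553 reads, 4006-fold, counting interval 718 to 158296). Calm2, a calmodulin gene with close copies, was not called (3443 against 686 reads, 3.20-fold).

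More mitotic genes were called higher in Neuro2A than in MEF. In the mitosis list 31 of 36 were tested, 13 called higher in Neuro2A and 2 higher in MEF (median 1.89). Ccnb1, cyclin B1, had 446 against 26 reads (10.9-fold), Racgap1, a cytokinesis regulator, 1191 against 75 reads (10.1-fold), Birc5, survivin of the chromosomal passenger complex, 1040 against 106 reads and Top2a 422 against 46 reads. At equal depth Birc5 was read in 9.30% against 7.61% of cells, and with wells thinned before summing its log2 ratio was 0.60, under 4-fold. Plk1 and Cdc20 were called higher in MEF on few reads, 9 against 39 reads and 16 against 41 reads, with 82.1% and 92.7% from 1 MEF well. With each gene's deepest well left out, 16 mitosis genes were called higher in Neuro2A and 0 in MEF.

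More replication genes were called higher in Neuro2A than in MEF, many of them on 1 well. Of the 35 listed genes 35 had a row and 25 were tested, with 14 called higher in Neuro2A and 2 in MEF (median 2.56). Ccne2, cyclin E2, which drives entry into S phase, had 1328 reads in Neuro2A and 41 in MEF (20.6-fold), and Mcm2, a subunit of the replicative helicase, 528 against 21 reads. Pcna, the DNA polymerase clamp, had 336 against 29 reads (7.38-fold). In 9 of the 14 Neuro2A calls 1 well supplied 50% or more of the reads, 88.1% for Mcm10, and without each gene's deepest well 4 of 15 tested genes were called higher in Neuro2A and 2 in MEF. Per cell the 35 replication genes took 0 to 14 reads in Neuro2A and 0 to 7 in MEF at 1000 reads, medians 1 and 0.

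Kinase inhibitors and p53 targets were mostly higher in MEF. Of 31 D cyclins, kinase inhibitors and p53 targets 21 were tested, 15 called higher in MEF and 1, the pocket protein gene Rbl1, in Neuro2A (median -5.15). Cdkn1a, the p21 inhibitor induced by p53, had 8 reads in Neuro2A and 1937 in MEF (379.9-fold) and was read in 31.5% of MEF cells. Cdkn1c (p57) had 0 and 980 reads (at least 513-fold) and Cdkn2b (p15) 0 and 328 (at least 172-fold). The p53 targets Ccng1 and Mdm2 had 333 against 2427 reads and 233 against 762 reads, the latter under 4-fold with library size scaling, while Trp53 itself was not called (77 against 51 reads). The D cyclins, partners of Cdk4 and Cdk6 in early G1, parted by member: Ccnd2 had 2 and 5260 reads (4127-fold, counting interval 1142 to 34087), Ccnd3 0 and 510 (at least 267-fold) and Ccnd1 468 against 302 reads, not called. Cdk4 was higher in MEF (369 against 1002 reads, 4.26-fold, and under 4-fold with library size or DESeq2 scaling). Cdkn2a, which encodes p16 and ARF, was not called (52 against 10 reads).

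Immediate early genes were mostly higher in MEF, while chaperones and antioxidant genes were called no more often than all tested genes, to within 1 gene. Of 20 tested immediate early genes among 23, 15 were higher in MEF and none in Neuro2A (median -4.89). Egr1, a serum-induced zinc-finger factor, had 3 and 1075 reads (562-fold, counting interval 192 to 2731) and Fosl2 20 against 1734 reads, whereas Fos and Jun were not called (872 against 539 reads and 507 against 333 reads). Among 22 tested chaperones 2 were higher in Neuro2A and 6 in MEF (median -0.88), shares below those of all tested genes. The cytosolic Hspa8 was not called (7527 against 4283 reads), but the small heat shock proteins Hspb1 and Cryab were higher in MEF (0 and 1279 reads, at least 669-fold, and 9 against 597 reads). In the antioxidant list 3 of 24 were higher in Neuro2A and 8 in MEF (median -0.50), near the 17.2% and 31.6% of all tested genes. Gclm, of glutathione synthesis, and Sod2, the mitochondrial superoxide dismutase, had 899 against 53 reads and 875 against 59 reads. The metallothionein Mt1 had 3 and 1087 reads (569-fold, counting interval 194 to 2761), and Gpx1, glutathione peroxidase 1, 224 against 3176 reads.

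Sterol genes were mostly higher in MEF. In the MHC class I and interferon list 4 of 13 tested genes were higher in Neuro2A and 4 in MEF (median 0.43), the MEF share being near the 31.6% of all tested genes. H2-K1, a class I heavy chain, had 1769 against 186 reads (6.06-fold). H2-K1 and H2-D1 are close in sequence, and the latter was not called (926 against 284 reads). B2m, the light chain, was not called (2001 against 3563 reads), and Ifitm3, an antiviral membrane protein, was higher in MEF (14 against 1180 reads, 132-fold). Of 17 tested cholesterol synthesis genes 10 were higher in MEF and 2 in Neuro2A (median -2.57). Idi1, an isoprenoid isomerase, had 20 against 938 reads and Sc4mol, a sterol methyl oxidase, 3 and 553 reads (289-fold, counting interval 98.5 to 1407). Lss, lanosterol synthase, was higher in Neuro2A (142 against 3 reads), 97.2% of its reads from 1 well. In the 8 MEF wells without a kept Neuro2A well this list's median was 1.34, on the other side of 0 but still below the median gene there (1.62). Without each gene's deepest well 0 and 9 of 10 were called in Neuro2A and MEF.

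Housekeeping complexes lay near the median gene. Ribosomal protein genes had a median of -0.46, with 5 of 79 called higher in Neuro2A and 14 in MEF. For oxidative phosphorylation genes the median was -0.65, with 1 and 13 of 78 called, and for proteasome subunits -0.63, with 0 and 3 of 35. With library size scaling these medians were 0.08, -0.10 and -0.09, so the sign of the ribosomal median depends on the scaling. Glycolysis and lactate genes had a median of -0.26, with 1 and 4 of 18 called, and lysosomal genes -1.09, with 3 and 7 of 24. The nucleolar and MYC list had 0.17, with 3 and 1 of 20; besides Npm1 and Mycn the Neuro2A call was Dkc1, the pseudouridine synthase dyskerin (1026 against 111 reads). Of its MEF reads 55 lay in the 8 wells without a kept Neuro2A well. Against these alone its log2 ratio was 0.59, under 4-fold and below the median gene there (1.62). Single ribosomal genes departed on both sides, among them Rpl34 (3321 against 203 reads, 10.4-fold higher in Neuro2A) and Rps14 (1379 against 7892 reads, 8.98-fold higher in MEF), and processed copies make their assignment uncertain. With Neuro2A reads subtracted from MEF, Neuro2A calls numbered 11 for ribosomal, 5 for oxidative phosphorylation, 3 for glycolysis and 6 for lysosomal genes.

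**Figure D5:**
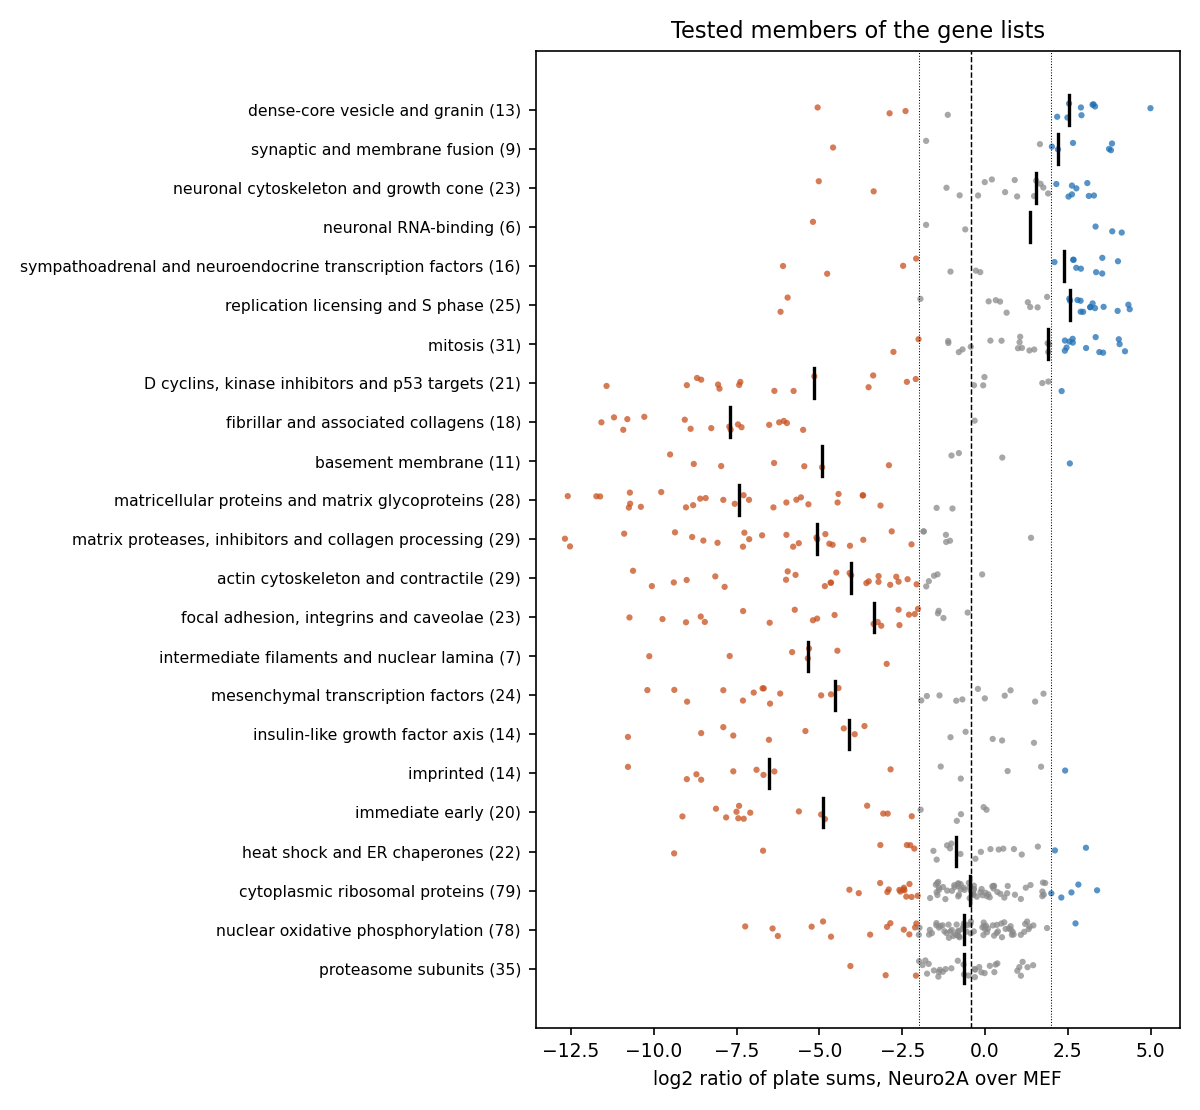
log2 ratio of plate sums (Neuro2A over MEF) for the tested members of 23 gene lists, 1 point per gene, with the number of tested members in brackets; points are blue at 4-fold or more higher in Neuro2A, red at 4-fold or more higher in MEF and grey between. Thick bars are list medians, the dashed line the median of all tested genes (-0.42) and the dotted lines 4-fold. The matrix and adhesion lists and the list of D cyclins, kinase inhibitors and p53 targets lie to the left and housekeeping lists around the dashed line.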

How the data were processed

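RNA of single sorted cells was copied with template switching, with a 5-base barcode for each well, and the wells of a plate were pooled before amplification, per the labels' protocols. The authors deposited raw hit counts per gene and well without molecular identifiers, per the deposited readme. The submitters' processing notes name Bowtie. Which version, build and gene models were used is not given in the sources used here. Of 116 barcode columns per plate 96 held reads. Wells with at least 1000 reads on gene rows were kept, and repeat rows (24.6% and 23.0% of reads in Neuro2A and MEF) and mitochondrial rows (12.9% and 11.0%) were left out of library sizes.

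Plate sums were scaled by TMM factors from all 5 plates (edgeR 4.0.16, R 4.3.3; DESeq2 1.42.0 size factors as an alternative). A gene was tested at a mean of 10 CPM or more, plate sums under 3 reads were set to 3 for calls and rankings, and calls needed a 4-fold ratio. Shares of cells used 1 thinning to 1000 reads (seed 11) and exact binomial 95% intervals. Ratios on 1 to 3 Neuro2A reads are printed without that floor and carry an exact 95% counting interval. The named genes are the 15 largest ratios each way at 100 CPM or more and a read in at least 25% of cells of the higher plate, plus list members. Members and lists were chosen with earlier results of these data known. The ratio script was tested on simulated counts. Promoter sequences are from RefSeq (GRCm38.p6) and matched 4900 of the 8492 tested genes by symbol. A few listed genes are not reported here by name.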

Additional observations from a re-analysis of the deposited data

How the results depend on the processing

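No paired analysis was possible because each cell type is 1 plate, so no replicate could be left out either. Counts of genes called higher in Neuro2A and MEF (1457 and 2687) were 585 and 1178 at a mean of 50 CPM or more, where fewer genes are tested, and 363 and 595 with wells thinned to 1000 reads before summing, where fewer reads are summed. With Neuro2A reads subtracted from MEF they were 2267 and 2454, or 2073 and 2657 with the scaling kept. Against the 8 MEF wells without a kept Neuro2A well they were 2765 and 1004, with the median gene at 1.62. The share of calls higher in Neuro2A moved from 35.2% to 48.7% with library sizes, 48.0% with the subtraction, 47.0% without barcodes ending in G and 73.4% in the 8 wells. In the other planned settings both counts stayed within 1.5 times. Of 211 named genes called, 174 had a ratio with thinned wells and 112 of these were still past 4-fold; in the 8 wells it was 180 and 151. Among called genes and lists, the sign reversed with thinned wells for the Hox median (0.21), Cenpf (-1.30), Slc16a3 (-0.081) and Pgk1 (0.83). In the 8 wells it reversed for the cholesterol median (1.34), Igfbp7 (1.14) and Slc2a1 (1.50), which were still below the median gene there (1.62). The cause of these reversals was not tested. Uncalled genes turned sign as well, among them Ncam1 (2.54), Marcksl1 (4.75), Ptprn (2.10) and Col18a1 (2.10) in the 8 wells. Leaving out each gene's deepest well and the subtraction with the scaling kept were chosen after the data were seen. Genes with 3 reads or fewer on both plates under a setting have no ratio there. Depth limits the shares of cells: 0 of 86 cells allows up to 3.49% of cells with a read, at 1000 reads a cell.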

Other observations

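Positional and chromatin genes, described in no comparison above, differed by member. Of 26 Hox genes, the homeobox factors that mark position along the body axis, 10 were tested, 8 called higher in MEF and 1 in Neuro2A. Hoxb3 had 0 reads in Neuro2A and 660 in MEF, Hoxd13 0 and 157, and Hoxb2 1 and 128, whereas Hoxc9 had 181 and 18. In each of these 9 calls 1 well supplied 50% or more of the reads. Without each gene's deepest well 3 were tested and 3 called higher in MEF. Of 65 histone genes 23 were tested, 6 higher in Neuro2A and 5 in MEF (median 0.61, all tested genes -0.42). Hist1h1a, a linker histone of dividing cells, had 1470 and 121 reads, and H2afv, a variant of H2A.Z type, 984 and 149. Hist1h2bg had 0 and 120, and H2afx, the variant phosphorylated at DNA breaks, 24 and 224. Histone genes are near-identical copies and many of their transcripts lack a poly(A) tail, so their counts are uncertain. Without each gene's deepest well 3 and 2 were called.

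Lin28, an RNA-binding protein of stem cells that blocks let-7 processing, had 180 reads in Neuro2A and 4 in MEF. A single Neuro2A well supplied 87.8% of them, and without each gene's deepest well it was not called. Of the 15 stem cell markers 13 had 0 reads in Neuro2A. Among mitochondrial rows mt_COX1 took 6.43% of mitochondrial reads in Neuro2A and 10.0% in MEF.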
